A study of Mus musculus with 9 samples.

Results

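The genes described here are p53 itself (Trp53) and genes known as targets or close partners of p53. They form a list of 36 named genes, in which Ptp4a3 was selected on its measured value, a large rise with the MCTP compound in these same libraries. Of the 36 genes, 35 were found by symbol in the deposited table. The other, Pidd1, is listed under its older symbol Lrdd (ENSMUSG00000025507.7), was found only by its identifier, and is given beside the counts, not in them. Because the MCTP libraries were used to choose Ptp4a3, all values of the 35 genes with MCTP are a description. No p-value of a single gene is given there, and counts of genes called describe the libraries without testing the list. Between Nsd2 silencing and control each gene was tested. That comparison shares the control libraries, and the list was chosen with earlier results of these data known. Its counts therefore do not test the list either.

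The values come from RNA-seq of polyadenylated RNA from NPK cells, a mouse prostate cancer line grown from metastases in the lungs of NPK animals. All libraries share this origin. The 9 libraries fall into a control group, a group with an shRNA against Nsd2, the gene of a histone H3 methyltransferase (shNsd2), and a group that received the compound MCTP, each with 3 replicates; the paper names MCTP-39 as a putative inhibitor of NSD2. The labels number the MCTP compound 39, 40 and 41 in the 3 replicates, and the source names of the shNsd2 libraries name Nsd2, Nsd3 and Nsd4 in turn. The groups were taken from the sample titles. The dose and time of MCTP in these cells, the shRNA clone of each library, and the Trp53 genotype of the line are not given in the sources used here. The authors' methods name an shRNA against luciferase as the control for silencing, and whether the control libraries carry it or received a solvent is not stated. Nothing states that replicates came from separate cultures, so p-values measure the spread between these libraries, which may be technical.

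p53 is a transcription factor that is held at a low level by the ubiquitin ligase Mdm2 and accumulates after DNA damage and other stress. It then activates genes that stop the cell cycle, start apoptosis, repair DNA and adjust metabolism, and among its targets are its own inhibitors, which closes a negative feedback loop. In prostate cancer, loss of p53 is frequent in advanced disease. Much of the control of p53 acts on the protein, which was not measured here.

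Values are on the log2 scale, already scaled between libraries by the authors, and are given for replicates 1, 2 and 3 in that order. A difference is the mean of the treated libraries minus the mean of the control libraries, with its standard error (SE) from limma, and a gene is called when its adjusted p is under 0.05. Sequencing depth is unknown because the table gives no counts. All 35 genes passed the filter on low values in each comparison. With bulk RNA, a change in the share of cells that express a gene and a change in RNA per cell cannot be told apart.

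Nsd2, listed under its older symbol Whsc1, had values of 12.48, 12.43 and 12.42 in control, 11.56, 11.61 and 11.68 in shNsd2 and 12.15, 12.21 and 12.07 in MCTP libraries. Its difference was -0.83 ± 0.041 (SE) with shNsd2, in the direction the label states (adjusted p = 2.26e-06 from limma), and -0.30 ± 0.054 (SE) with MCTP (adjusted p = 0.00562 from limma), where it was -0.11 after the GC correction described below. The 3 groups did not overlap, shNsd2 being lowest and control highest. Epithelial and prostate markers were present in control cells, where Krt8 (16.21, 16.35 and 16.28), Cdh1 (11.70, 11.79 and 11.84) and Hoxb13 (10.25, 10.32 and 10.28) lay well above the filter value of 3.78. Epcam, at 3.55, 3.54 and 3.55, did not, and Vim, a mesenchymal marker, was at 17.16, 17.26 and 17.23. The fibroblast gene Dcn (2.31, 2.32 and 2.34) and the endothelial gene Cdh5 (3.49, 3.48 and 3.52) were below that value in control cells. Cdh5 was at 3.69, 3.66 and 3.71 in shNsd2 and 3.53, 3.47 and 3.51 in MCTP libraries, so that the shNsd2 libraries lay above all others. Markers of other cell types moved with the groups, and their part in the results was not tested. The macrophage marker Cd68 was at 6.50, 6.51 and 6.60 in control, 6.78, 6.78 and 6.72 in shNsd2 and 7.20, 7.15 and 7.44 in MCTP libraries, and the fibroblast gene Col1a1 at 8.25, 8.12 and 8.23 in control, 7.88, 7.95 and 7.89 in shNsd2 and 7.94, 7.92 and 7.76 in MCTP libraries. The other immune markers searched for, Ptprc and Cd3e, and the endothelial marker Pecam1 were not found among the deposited values. Genes of the same cell types did not move together. The fibroblast gene Pdgfra, close to the filter value, was at 3.97, 4.01 and 3.99 in control, 4.14, 4.10 and 4.12 in shNsd2 and 4.04, 4.06 and 4.03 in MCTP libraries, and Dcn at 2.444, 2.483 and 2.501 in MCTP libraries. The basal keratin gene Krt14 was at 8.78, 8.98 and 8.95 in control, 9.76, 9.68 and 9.63 in shNsd2 and 10.06, 9.91 and 10.30 in MCTP libraries, whereas the basal gene Trp63 differed from control by -0.094 ± 0.034 (SE) with shNsd2 (-0.12 to -0.060 over the libraries left out in turn, and -0.031 after GC correction) and 0.030 ± 0.042 (SE) with MCTP, or 0.0034 without MCTP replicate 2 and 0.16 after GC correction.

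MCTP replicate 2 stood apart from the other MCTP libraries. The correlation, across 11952 genes, between transcript GC content and a library's deviation from the mean of all 9 libraries was 0.44 and 0.54 in MCTP replicates 1 and 3 and -0.26 in replicate 2. In the control libraries it was -0.58, -0.29 and -0.16, and in the shNsd2 libraries 0.096, 0.12 and -0.28. Genes are not independent replicates in such a correlation. Among the 35 p53 target genes the SD within a group had a median of 0.078 in control, 0.037 in shNsd2 and 0.12 in MCTP libraries, and reached 0.52 for Trp53inp1 with MCTP. The counts of the 35 genes called with MCTP are therefore given with and without this replicate, though not by role, and so are the differences of those of the 35 that move by over 1.5 times or change sign without it, and of some others. Some differences are also given after GC correction, which removes each library's trend with transcript GC content.

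With Nsd2 silencing, 17 of the 35 genes rose (48.6%) and 5 fell (14.3%), where 23.1% of the 12205 genes tested rose and 24.8% fell. Without Ptp4a3, 16 of 34 rose (47.1%) and 5 fell (14.7%). After GC correction 20 of the 35 genes rose and 6 fell, beside 27.6% and 28.7% of all genes. The median difference of the 35 genes was 0.11 without this correction, against 0.0020 over all genes tested. No gene of the list rose by more than the 0.48 of Ptp4a3, followed by Plk2 (0.48), Trp53inp1 (0.41) and Trp53 itself (0.40). The 5 that fell were Rrm2b, Sesn1, Ccng2, Tob1 and Ercc5, with differences between -0.28 and -0.19, and this count was 3 without shNsd2 replicate 1 or without shNsd2 replicate 2, where 19.4% and 18.8% of all genes fell. The shNsd2 and control libraries did not overlap for 24 of the 35 genes (68.6%), against 57.2% of all genes tested. An exact two-sided permutation test of 3 against 3 libraries cannot give a p below 0.1, so it cannot pass the threshold for any gene.

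In the MCTP libraries, 23 of the 35 genes were called higher and 2 lower, where 18.0% of the 12216 genes tested were called higher and 17.2% lower. After GC correction 26 were called higher and 3 lower, beside 23.3% and 22.5% of all genes. Since the list was chosen with this contrast known, nothing is read from these counts. The median difference was 0.46 for the 35 genes and 0.41 without Ptp4a3, against -0.0062 over all genes tested, and the MCTP and control libraries did not overlap for 26 of the 35 genes, against 50.6% of all genes. Over all genes, 2198 were called higher and 2107 lower, a split that became 2807 and 1550 when each library was centred on its median. Without MCTP replicate 2, 25 of the 35 genes were called higher and 4 lower, beside 29.8% and 30.6% of all genes, and 34 of the 35 differences kept their sign, Polk being the exception. The number of all genes called in either direction was 7384 without MCTP replicate 2 and between 2046 and 2842 when any other of the 6 libraries was left out, and the genes of the list called lower numbered 1 without control replicate 1 or without MCTP replicate 1, beside 8.76% and 7.56% of all genes. Both comparisons share the control libraries, so their values stand side by side and are not independent of each other.

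Values of the 35 genes, Ptp4a3 among them, were also summarized by library, as a description. Their median deviation from their control means was 0.10, 0.12 and 0.18 in the shNsd2 libraries and 0.42, 0.39 and 0.37 in the MCTP libraries. Over all genes tested with MCTP against control, this median was -0.0057, -0.0069 and 0.012 in the shNsd2 libraries. In the MCTP libraries it was 0.0052, -0.014 and -0.0011. The numbers of the 35 genes above their control mean were 24, 26 and 28 with shNsd2 and 28, 29 and 28 with MCTP. The matching share of all genes was not computed, so nothing is read from these numbers. In the control libraries 17 genes lay above the mean in each.

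**Figure D1:**
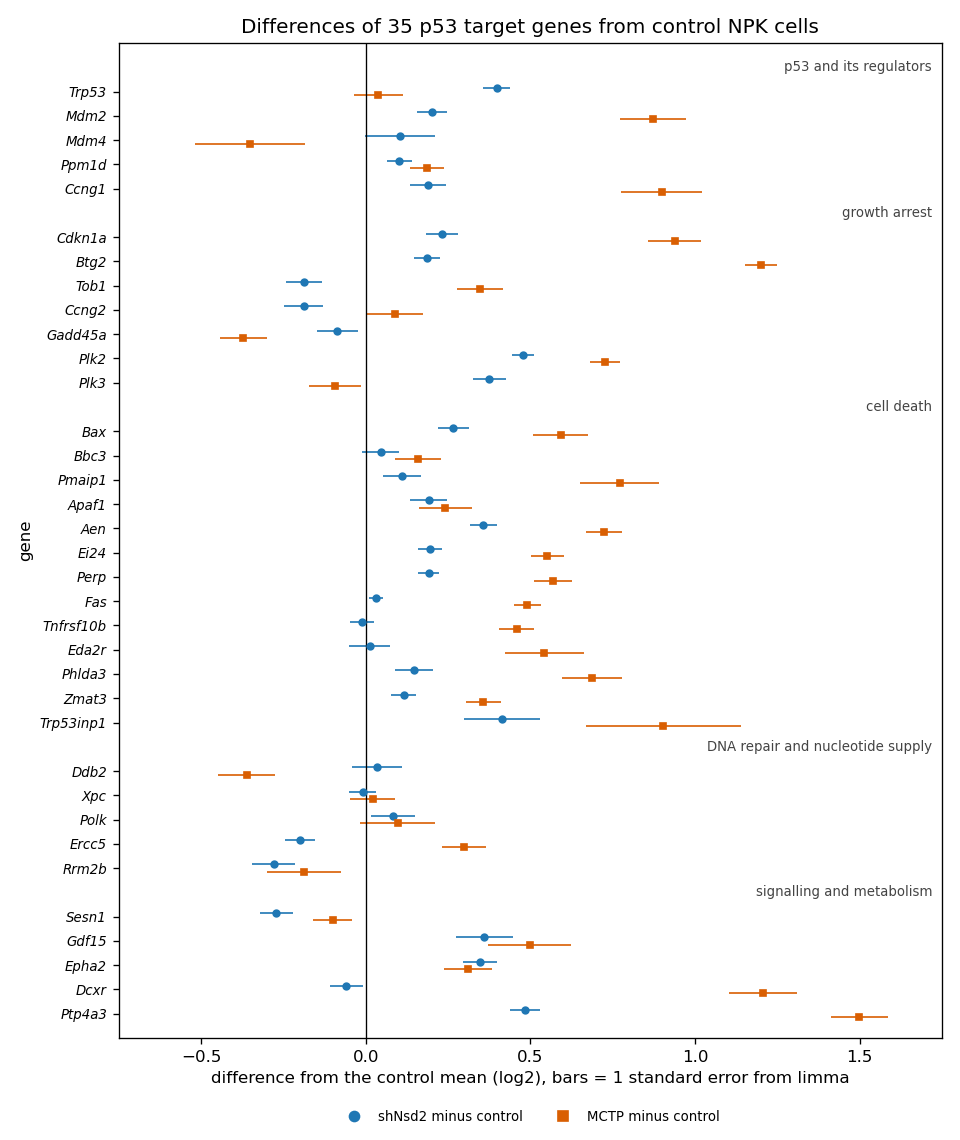
Differences of the 35 p53 target genes from the control mean (log2, horizontal axis), by role, for shNsd2 (circles) and MCTP (squares), each from 3 libraries against 3; bars are 1 standard error from limma. The squares lie farthest to the right for Ptp4a3 (1.50), Dcxr (1.21) and Btg2 (1.20), and to the left of 0 for Gadd45a (-0.37), Ddb2 (-0.36) and Mdm4 (-0.35), among others.

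Among p53 and its regulators, the transcript of p53 itself (Trp53, ENSMUSG00000059552.6) had values of 12.55, 12.63 and 12.62 in control, 13.04, 13.01 and 12.94 in shNsd2 and 12.69, 12.48 and 12.74 in MCTP libraries. Every shNsd2 library lay above every other library, whereas the MCTP values overlapped the control values. Trp53 rose by 0.40 ± 0.040 (SE) with shNsd2 (adjusted p = 9.05e-05 from limma), and its difference with MCTP was 0.038 ± 0.074 (SE). The latter was 0.12 without MCTP replicate 2, -0.014 to 0.12 over the libraries left out in turn, and -0.034 after GC correction. Mdm2 (ENSMUSG00000020184.8), the ubiquitin ligase that degrades p53, was at 11.50, 11.38 and 11.43 in control, 11.59, 11.61 and 11.72 in shNsd2 and 12.21, 12.55 and 12.16 in MCTP libraries. The 3 groups did not overlap, in the order control, shNsd2, MCTP, and MCTP replicate 2 was the highest of all. Mdm2 rose by 0.20 ± 0.047 (SE) with shNsd2 (adjusted p = 0.00713 from limma), a call that was lost when all 9 libraries entered 1 fit (adjusted p = 0.120, in a range of 0.000126 to 0.120 over 13 alternatives). With MCTP it was higher by 0.87 ± 0.10 (SE), or by 0.75 without MCTP replicate 2.

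Mdm4, which binds p53 and blocks its activity, had values of 9.84, 9.45 and 9.49 in control, 9.61, 9.62 and 9.86 in shNsd2 and 9.13, 9.60 and 8.99 in MCTP libraries. MCTP replicates 1 and 3 were below all controls, while MCTP replicate 2 lay among them. The difference with MCTP was -0.35 ± 0.17 (SE) with this library, -0.53 without it and -0.20 after GC correction. Over the libraries left out in turn it was -0.53 to -0.23. With shNsd2 the difference of 0.10 ± 0.11 (SE) did not pass the test (adjusted p = 0.443 from limma), but did without control replicate 1, the highest control (adjusted p = 0.0236, in a range of 0.0236 to 0.886). The difference was 0.021 to 0.23 over the libraries left out in turn, lowest without shNsd2 replicate 3. Ccng1, cyclin G1, a p53 target that takes part in feedback on Mdm2, was at 12.54, 12.42 and 12.36 in control, 12.61, 12.57 and 12.71 in shNsd2 and 13.25, 13.63 and 13.14 in MCTP libraries. Its groups did not overlap, and MCTP replicate 2 was again the highest library. Ccng1 rose by 0.19 ± 0.055 (SE) with shNsd2 (adjusted p = 0.0199 from limma). That call was lost in a single fit of all 9 libraries (0.216) and without control replicate 2 (0.0689), control replicate 3 (0.0679) or shNsd2 replicate 3 (0.0588), in a range of 2.58e-05 to 0.216. With MCTP it was higher by 0.90 ± 0.12 (SE), or 0.75 without MCTP replicate 2. Ppm1d, the Wip1 phosphatase that switches the p53 response off, differed by 0.19 ± 0.051 (SE) with MCTP and by 0.10 ± 0.039 (SE) with shNsd2. The latter did not pass the test (adjusted p = 0.0560 from limma), although its libraries did not overlap with the controls and 4 of 13 alternatives, quantile normalization, median centring, no variance trend and GC correction, gave adjusted p between 0.0145 and 0.0323, in a range of 0.0145 to 0.186.

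Roles were assigned after values were seen, so the counts by role here and below are descriptions only. Of the 7 growth arrest genes, 4 rose and 2 fell with shNsd2, and 4 were called higher and 1 lower with MCTP, where 23.1% of all genes rose and 24.8% fell with shNsd2, and 18.0% were higher and 17.2% lower with MCTP. Cdkn1a (ENSMUSG00000023067.7) encodes p21, the inhibitor of cyclin-dependent kinases through which p53 arrests the cell cycle. It was at 12.38, 12.54 and 12.54 in control, 12.75, 12.71 and 12.70 in shNsd2 and 13.43, 13.29 and 13.56 in MCTP libraries. The groups were ordered without overlap, control lowest and MCTP highest. Cdkn1a rose by 0.23 ± 0.048 (SE) with shNsd2, a fold of 1.17 (adjusted p = 0.00390 from limma), and was higher by 0.94 ± 0.080 (SE) with MCTP, a fold of 1.92. Btg2, an antiproliferative protein that promotes mRNA deadenylation, had values of 9.99, 10.02 and 10.07 in control, 10.17, 10.22 and 10.24 in shNsd2 and 11.23, 11.22 and 11.23 in MCTP libraries. The MCTP libraries lay close together and far above all others, and the shNsd2 libraries above all controls. The difference was 0.19 ± 0.040 (SE) with shNsd2 (adjusted p = 0.00481 from limma) and 1.20 ± 0.048 (SE) with MCTP.

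Plk2 and Plk3 are polo-like kinases with roles in stress responses. Plk2 was at 10.93, 10.98 and 10.98 in control, 11.43, 11.44 and 11.46 in shNsd2 and 11.69, 11.68 and 11.71 in MCTP libraries. Its groups did not overlap, and it rose by 0.48 ± 0.033 (SE) with shNsd2 (adjusted p = 1.32e-05 from limma) and was higher by 0.73 ± 0.045 (SE) with MCTP. Plk3 was at 9.16, 9.23 and 9.33 in control, 9.60, 9.59 and 9.66 in shNsd2 and 9.14, 9.03 and 9.28 in MCTP libraries. All shNsd2 libraries were above all others, and MCTP and control libraries overlapped. Plk3 rose by 0.38 ± 0.051 (SE) with shNsd2 (adjusted p = 0.000436 from limma), and the difference with MCTP was -0.094 ± 0.079 (SE), or -0.033 without MCTP replicate 2 and -0.20 after GC correction.

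Gadd45a, a stress sensor that acts in growth arrest and repair, was among the genes lower with MCTP, at 9.19, 9.11 and 9.32 in control, 9.05, 9.11 and 9.21 in shNsd2 and 8.80, 8.91 and 8.79 in MCTP libraries. All MCTP libraries were below all controls, whereas shNsd2 libraries overlapped them. The difference was -0.37 ± 0.071 (SE) with MCTP and -0.086 ± 0.063 (SE) with shNsd2, which did not pass the test (adjusted p = 0.291 from limma). The shNsd2 difference was -0.13 to -0.029 over the libraries left out in turn, nearest 0 without control replicate 3 and farthest without control replicate 2. Tob1, an antiproliferative relative of Btg2, had values of 10.31, 10.17 and 10.10 in control, 9.995, 9.98 and 10.04 in shNsd2 and 10.49, 10.63 and 10.49 in MCTP libraries. The shNsd2 libraries were below and the MCTP libraries above all controls. Tob1 fell by 0.19 ± 0.054 (SE) with shNsd2 (adjusted p = 0.0187 from limma), a call lost without shNsd2 replicate 1 (0.0606) or shNsd2 replicate 2 (0.0689), in a range of 0.0102 to 0.0689, and was higher by 0.35 ± 0.071 (SE) with MCTP. Ccng2, cyclin G2, an inhibitor of cell cycle progression, fell with shNsd2 (difference -0.19 ± 0.059 SE; adjusted p = 0.0266 from limma) and differed by 0.089 ± 0.086 (SE) with MCTP, where it overlapped the controls. The MCTP difference was 0.024 without MCTP replicate 2 and 0.25 after GC correction. Its shNsd2 difference was -0.23 to -0.12 over the libraries left out in turn, and its call was lost in a single fit of all 9 libraries (0.0790) and without shNsd2 replicate 1 (0.0685) or shNsd2 replicate 2 (0.0920), in a range of 0.0120 to 0.0920.

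**Figure D2:**
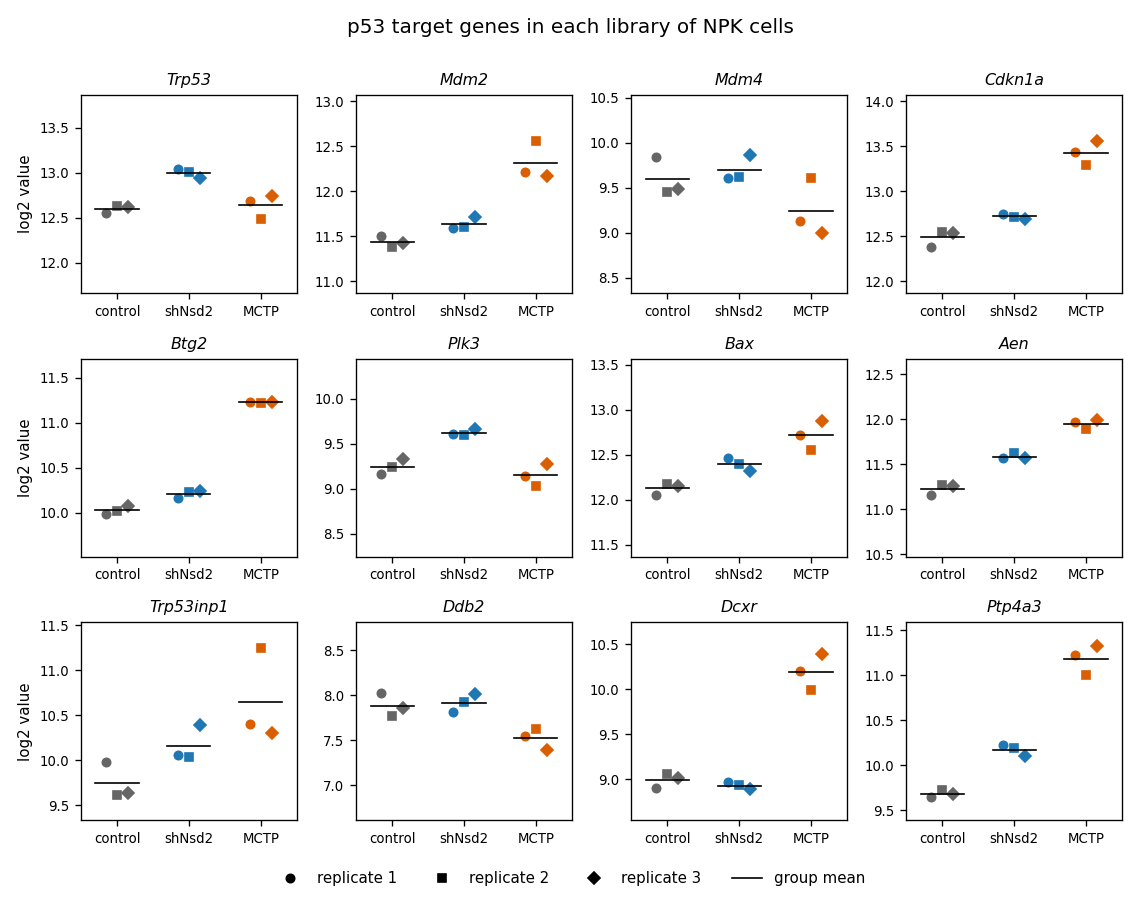
Values (log2, vertical axis, the same span in every panel) of 12 p53 target genes in each of the 9 libraries, by group; symbols mark replicates 1 to 3 and lines the group means. In the Btg2, Dcxr and Ptp4a3 panels the MCTP libraries stand above all others, in the Trp53 and Plk3 panels the shNsd2 libraries do, and for Trp53inp1 MCTP replicate 2 (11.25) lies far above MCTP replicates 1 and 3 (10.40 and 10.30).

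Cell death genes formed the largest role group, with 13 genes, grouped after values were seen. All 13 had a positive difference with MCTP, from 0.16 for Bbc3 to 0.90 for Trp53inp1, beside 5957 of the 12216 genes tested. Of these, 11 were called higher with MCTP and 7 rose with shNsd2, and none was called lower in either comparison, beside 18.0% of all genes called higher and 17.2% lower with MCTP and 23.1% and 24.8% with shNsd2. Bax, a pore-forming protein of the mitochondrial outer membrane, was at 12.06, 12.17 and 12.15 in control, 12.46, 12.40 and 12.32 in shNsd2 and 12.72, 12.55 and 12.88 in MCTP libraries. The groups did not overlap, with shNsd2 between control and MCTP. Bax rose by 0.27 ± 0.047 (SE) with shNsd2 (adjusted p = 0.00182 from limma) and was higher by 0.59 ± 0.084 (SE) with MCTP, and the difference with shNsd2 was 0.17 after GC correction. Pmaip1, the BH3-only protein Noxa, had values of 6.93, 6.76 and 6.80 in control, 6.85, 6.95 and 7.01 in shNsd2 and 7.37, 7.87 and 7.56 in MCTP libraries. All MCTP libraries were above all others, and shNsd2 libraries overlapped the controls. Its difference with MCTP was 0.77 ± 0.12 (SE), or 0.64 without MCTP replicate 2. With shNsd2 it was 0.11 ± 0.058 (SE), short of the threshold (adjusted p = 0.149 from limma) except under quantile normalization (0.0232), GC correction (0.00591) or without control replicate 1 (0.0255), in a range of 0.00591 to 0.464. Bbc3, the BH3-only protein Puma, differed by 0.045 ± 0.056 (SE) with shNsd2 (adjusted p = 0.535 from limma), a sign that turned under GC correction and without control replicate 1, and it overlapped the controls in both comparisons. With MCTP its difference of 0.16 ± 0.070 (SE) was 0.057 after GC correction.

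Aen, an apoptosis-enhancing nuclease, was at 11.15, 11.27 and 11.25 in control, 11.56, 11.62 and 11.56 in shNsd2 and 11.97, 11.88 and 11.99 in MCTP libraries. Its groups were ordered without overlap, and it rose by 0.36 ± 0.041 (SE) with shNsd2 (adjusted p = 0.000178 from limma) and was higher by 0.72 ± 0.055 (SE) with MCTP. Ei24, a p53-induced protein of the endoplasmic reticulum, had values of 11.50, 11.50 and 11.49 in control, 11.72, 11.72 and 11.64 in shNsd2 and 12.08, 11.97 and 12.09 in MCTP libraries. These too did not overlap, with differences of 0.19 ± 0.035 (SE) with shNsd2 (adjusted p = 0.00205 from limma) and 0.55 ± 0.051 (SE) with MCTP. Perp, a membrane protein of desmosomes and an apoptosis effector, was at 11.42, 11.42 and 11.39 in control, 11.58, 11.59 and 11.63 in shNsd2 and 11.90, 12.08 and 11.95 in MCTP libraries. The order without overlap was again control, shNsd2, MCTP, with differences of 0.19 ± 0.033 (SE; adjusted p = 0.00166 from limma) and 0.57 ± 0.059 (SE). Apaf1, the scaffold of the apoptosome, rose by 0.19 ± 0.056 (SE) with shNsd2 (adjusted p = 0.0200 from limma) and differed by 0.24 ± 0.081 (SE) with MCTP. Its call with shNsd2 was lost in a single fit of all 9 libraries (0.0681) and without control replicate 2 (0.0807), control replicate 3 (0.0631) or shNsd2 replicate 3 (0.0606), in a range of 0.000571 to 0.0807.

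The receptors of the cell death group stood higher with MCTP and did not pass the test with shNsd2. Fas, the receptor of the Fas ligand, was at 4.14, 4.15 and 4.16 in control, 4.18, 4.19 and 4.18 in shNsd2 and 4.60, 4.73 and 4.59 in MCTP libraries. These lie close to the filter value, where values of this kind may understate differences, which was not tested. The groups did not overlap, with a difference from control of 0.49 ± 0.041 (SE) with MCTP and 0.031 ± 0.021 (SE) with shNsd2 (adjusted p = 0.261 from limma). After GC correction these differences were 0.62 and 0.094. Tnfrsf10b, the mouse TRAIL receptor, was at 11.29, 11.32 and 11.35 in control, 11.27, 11.32 and 11.33 in shNsd2 and 11.79, 11.70 and 11.84 in MCTP libraries. The MCTP libraries were above all others and the shNsd2 libraries overlapped the controls, with differences of 0.46 ± 0.053 (SE) with MCTP and -0.011 ± 0.035 (SE) with shNsd2 (adjusted p = 0.812 from limma). Eda2r, a receptor of the ectodysplasin A2 ligand, had values of 9.69, 9.59 and 9.54 in control, 9.55, 9.57 and 9.75 in shNsd2 and 10.09, 10.44 and 9.93 in MCTP libraries. The MCTP libraries were above all others, by 0.54 ± 0.12 (SE) from control, or 0.40 without MCTP replicate 2 and 0.74 after GC correction. With shNsd2 the difference was 0.012 ± 0.062 (SE; adjusted p = 0.894 from limma). Over the libraries left out in turn, the shNsd2 difference was -0.027 to 0.0077 for Tnfrsf10b, lowest without control replicate 1 and highest without shNsd2 replicate 1, and -0.051 to 0.054 for Eda2r, lowest without shNsd2 replicate 3 and highest without control replicate 1.

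Trp53inp1, a nuclear protein that promotes the activity of p53, showed the widest spread of the list in the shNsd2 and MCTP libraries. It was at 9.98, 9.61 and 9.64 in control, 10.05, 10.04 and 10.38 in shNsd2 and 10.40, 11.25 and 10.30 in MCTP libraries. Both treated groups lay above all controls, and the MCTP mean rested in part on replicate 2, since the difference of 0.90 ± 0.24 (SE) was 0.60 without it. With shNsd2 it rose by 0.41 ± 0.11 (SE; adjusted p = 0.0159 from limma), a call lost in a single fit of all 9 libraries (0.179) and without control replicate 2 (0.0634) or control replicate 3 (0.0505), in a range of 0.000191 to 0.179. Phlda3, a repressor of Akt signalling, had values of 12.05, 12.18 and 12.15 in control, 12.37, 12.30 and 12.15 in shNsd2 and 12.83, 12.62 and 12.99 in MCTP libraries. The MCTP libraries were above all others, by 0.69 ± 0.091 (SE) from control. The shNsd2 libraries overlapped the controls, with a difference of 0.15 ± 0.058 (SE; adjusted p = 0.0644 from limma) that passed the threshold under quantile normalization (0.0474), median centring (0.0479) or without shNsd2 replicate 3 (0.0102), in a range of 0.0102 to 0.234, and that was 0.054 after GC correction. Zmat3, an RNA-binding zinc finger protein, was at 12.05, 12.12 and 12.17 in control, 12.21, 12.22 and 12.24 in shNsd2 and 12.52, 12.46 and 12.42 in MCTP libraries. Its groups did not overlap, with differences of 0.11 ± 0.039 (SE; adjusted p = 0.0352 from limma) and 0.36 ± 0.054 (SE). The call with shNsd2 was the least stable of the list, since it was lost in 7 of 13 alternatives: in a single fit of all 9 libraries (0.0656), with replicate number as a block (0.0797), and without control replicate 1 (0.0659), control replicate 2 (0.0882), shNsd2 replicate 1 (0.0789), shNsd2 replicate 2 (0.102) or shNsd2 replicate 3 (0.0735), in a range of 0.00607 to 0.102.

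Of the 5 genes of DNA repair and nucleotide supply, none rose and 2 fell with shNsd2, and 1 was called higher and 1 lower with MCTP (20% each). Of all genes, 23.1% rose and 24.8% fell with shNsd2, and 18.0% were called higher and 17.2% lower with MCTP. Ddb2, a sensor of ultraviolet damage in nucleotide excision repair, was at 8.03, 7.76 and 7.86 in control, 7.81, 7.92 and 8.02 in shNsd2 and 7.54, 7.63 and 7.39 in MCTP libraries. All MCTP libraries were below all others, and shNsd2 and control libraries overlapped. The difference was -0.36 ± 0.087 (SE) with MCTP, or -0.41 without MCTP replicate 2, and 0.034 ± 0.075 (SE) with shNsd2 (adjusted p = 0.732 from limma), the latter -0.025 to 0.11 over the libraries left out in turn, lowest without control replicate 2 and highest without control replicate 1. Ercc5, an endonuclease of the same repair pathway, fell with shNsd2 (difference -0.20 ± 0.045 SE; adjusted p = 0.00626 from limma) and was higher with MCTP by 0.30 ± 0.066 (SE). Rrm2b, the p53-inducible subunit of ribonucleotide reductase, fell with shNsd2 (difference -0.28 ± 0.065 SE; adjusted p = 0.00717 from limma), a call lost in a single fit of all 9 libraries (0.0565, in a range of 0.000203 to 0.0565). With MCTP its difference of -0.19 ± 0.11 (SE) was -0.31 without MCTP replicate 2 and 0.034 after GC correction. Over the libraries left out in turn it was -0.31 to -0.12. Xpc, which recognizes damaged DNA, and the translesion polymerase Polk overlapped the controls in both comparisons, with shNsd2 differences of -0.0096 ± 0.040 (SE; adjusted p = 0.862 from limma) and 0.083 ± 0.066 (SE; adjusted p = 0.328 from limma), the latter under the threshold after GC correction (0.0100, in a range of 0.0100 to 0.851). Without shNsd2 replicate 3 the Polk difference with shNsd2 was 0.014 (adjusted p = 0.851 from limma). With MCTP the difference was 0.021 ± 0.069 (SE) for Xpc and 0.10 ± 0.11 (SE) for Polk. Without MCTP replicate 2 these were 0.085 and -0.041, and after GC correction -0.041 and 0.29.

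Ptp4a3 (ENSMUSG00000059895.6), the phosphatase PRL-3 and the gene chosen for its rise with MCTP, was at 9.64, 9.73 and 9.68 in control, 10.22, 10.19 and 10.10 in shNsd2 and 11.23, 10.996 and 11.33 in MCTP libraries. The groups did not overlap, in the order control, shNsd2, MCTP. With MCTP it was higher by 1.50 ± 0.085 (SE), a fold of 2.83, or by 1.59 on the log2 scale without MCTP replicate 2, which is a description since this value chose it. With shNsd2 it rose by 0.48 ± 0.045 (SE), a fold of 1.40 (adjusted p = 5.57e-05 from limma), in a comparison that shares the control libraries with the one that chose it. Dcxr, a reductase of sugars and dicarbonyl compounds, had values of 8.90, 9.05 and 9.01 in control, 8.96, 8.93 and 8.89 in shNsd2 and 10.20, 9.99 and 10.39 in MCTP libraries. The MCTP libraries were above all others, while shNsd2 libraries overlapped the controls. Its difference was 1.21 ± 0.10 (SE) with MCTP and -0.059 ± 0.050 (SE) with shNsd2 (adjusted p = 0.355 from limma), the latter passing the threshold after GC correction (0.00785, in a range of 0.00785 to 0.730). It was -0.10 to -0.026 over the libraries left out in turn, farthest from 0 without control replicate 1 and nearest without control replicate 2.

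Gdf15, a secreted stress hormone, was at 8.12, 8.45 and 8.46 in control, 8.73, 8.66 and 8.73 in shNsd2 and 8.77, 8.69 and 9.07 in MCTP libraries. Both treated groups were above all controls and overlapped each other, with differences of 0.36 ± 0.087 (SE; adjusted p = 0.00828 from limma) with shNsd2 and 0.50 ± 0.13 (SE) with MCTP. Epha2, an ephrin receptor tyrosine kinase, had values of 13.71, 13.88 and 13.91 in control, 14.18, 14.19 and 14.17 in shNsd2 and 14.17, 14.04 and 14.21 in MCTP libraries. Here too the treated groups overlapped each other above the controls, with differences of 0.35 ± 0.052 (SE; adjusted p = 0.000705 from limma) and 0.31 ± 0.073 (SE), the latter 0.21 after GC correction. Sesn1, a sestrin that restrains mTORC1 signalling, fell with shNsd2 (difference -0.27 ± 0.050 SE; adjusted p = 0.00229 from limma) and differed by -0.10 ± 0.060 (SE) with MCTP, where it overlapped the controls and was -0.13 to -0.055 over the libraries left out in turn, nearest 0 without control replicate 1. Pidd1, the scaffold of a caspase-activating complex, was at 8.67, 8.52 and 8.56 in control, 8.71, 8.84 and 8.75 in shNsd2 and 9.41, 9.42 and 9.54 in MCTP libraries. The groups did not overlap, and the differences were 0.18 ± 0.054 (SE; adjusted p = 0.0214 from limma) with shNsd2 and 0.87 ± 0.065 (SE) with MCTP.

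The treatments were also set against each other without the controls, as a description. Of the 35 genes, 21 were called higher with MCTP than with shNsd2 and 5 lower, where 22.6% of the 12217 genes tested were called higher and 20.6% lower. Without MCTP replicate 2 these counts were 23 and 5, beside 32.1% and 31.6% of all genes, and with any other library left out the lower count was 4, beside 11.6% to 17.4% of all genes. The lower count was also 4 without the variance trend, beside 20.4% of all genes, and after GC correction 24 were called higher and 6 lower, beside 28.4% and 28.2% of all genes. The number of all genes called in either direction was 3391 without MCTP replicate 1, 3429 without shNsd2 replicate 2 and 3420 without shNsd2 replicate 3. The genes lower with MCTP than with shNsd2 were Plk3 (-0.47 ± 0.070 SE), Mdm4 (-0.46 ± 0.15 SE), Ddb2 (-0.40 ± 0.079 SE), Trp53 (-0.36 ± 0.073 SE) and Gadd45a (-0.29 ± 0.063 SE). Dcxr (1.27 ± 0.10 SE), Ptp4a3 (1.02 ± 0.087 SE) and Btg2 (1.01 ± 0.044 SE) had differences above 1 in the other direction. The transcript of Trp53 was thus lower, and that of Mdm2 (0.67 ± 0.10 SE) and Cdkn1a (0.71 ± 0.070 SE) higher, with MCTP than with shNsd2.

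A further list of 36 textbook p53-induced genes outside the 35, of which 34 were in the table, gave 14 genes that rose and 7 that fell with shNsd2, and 19 that rose and 2 that fell with MCTP. These are 41.2% and 20.6% of the list with shNsd2, beside 23.1% and 24.8% of all genes, and 55.9% and 5.88% with MCTP, beside 18.0% and 17.2%. This list and the list of regulators below were also chosen with earlier results of these data known. Their counts and p-values describe these libraries and are no independent check. Their median difference was 0.052 with shNsd2 and 0.19 with MCTP. The count that rose with shNsd2 was 9 without control replicate 2 or without shNsd2 replicate 1, where 18.7% and 17.2% of all genes rose. The count that rose with MCTP was 12 without control replicate 2, 11 without MCTP replicate 1 and 23 without MCTP replicate 2, where 9.95%, 9.19% and 29.8% of all genes rose, and 3 fell without MCTP replicate 2, where 30.6% of all genes did. With shNsd2, Rrad, a small GTPase, rose from 6.49, 6.53 and 6.51 to 7.30, 7.32 and 7.35 (0.81 ± 0.036 SE; adjusted p = 1.28e-06 from limma), with no overlap. Sesn2, a sestrin, rose by 0.53 ± 0.060 (SE; adjusted p = 0.000168 from limma), and the immediate early gene Ier5 by 0.50 ± 0.037 (SE; adjusted p = 1.71e-05 from limma). The adaptor gene Traf4 and the peptide transporter gene Tap1 rose by 0.37 and 0.33 (adjusted p = 0.000173 and 0.000549 from limma). Cmbl and Cd82, the latter a tetraspanin, had differences of -0.30 and -0.46 (adjusted p = 0.000686 and 0.000104 from limma). In each of these 7 genes the shNsd2 and control libraries did not overlap.

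With MCTP, the adenylate kinase gene Ak1 rose from 11.12, 11.11 and 11.10 to 12.37, 12.17 and 12.48 (1.23 ± 0.079 SE; adjusted p = 7.74e-05 from limma), and Tap1 from 7.48, 7.35 and 7.37 to 8.48, 8.38 and 8.50 (1.05 ± 0.062 SE; adjusted p = 5.70e-05 from limma). In both, all MCTP libraries were above all others. Pltp, a phospholipid transfer protein gene, and Abhd4 rose by 0.65 and 0.63 (adjusted p = 0.00208 and 0.00139 from limma). Smaller rises were those of Rps27l (0.46; adjusted p = 0.00125), Triap1 (0.42; 0.00503), Traf4 (0.38; 0.00422), Susd6 (0.38; 0.00127) and Cmbl (0.32; 0.00457), all from limma. Ddit4, an inhibitor of mTORC1, and Cd82 had differences of -0.38 and -0.37 (adjusted p = 0.00422 and 0.00950 from limma). Atf3, a stress-induced transcription factor gene, rose by 0.53 (adjusted p = 0.0128 from limma), the lysosomal fucosidase gene Fuca1 by 0.44 (0.00994) and Rap2b, a small GTPase gene, by 0.31 (0.0118). The calls of these last genes were lost without MCTP replicate 1 for Atf3 (0.0563, in a range of 0.00145 to 0.0563) and Fuca1 (0.0509, in a range of 3.03e-05 to 0.0509), and without control replicate 2 for Rap2b (0.0567, in a range of 0.00236 to 0.0567).

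Of 22 regulators and relatives of p53, 20 were in the table, where 3 rose and 4 fell with shNsd2 and 1 rose and 5 fell with MCTP, counts that include Nsd2 itself. These are 15.0% and 20% of the list with shNsd2, beside 23.1% and 24.8% of all genes, and 5% and 25.0% with MCTP, beside 18.0% and 17.2%. The count that rose with shNsd2 was 6 without control replicate 1, where 24.5% of all genes rose, and the count that fell was 2 without control replicate 3, shNsd2 replicate 1 or shNsd2 replicate 2, where 22.2%, 19.4% and 18.8% of all genes fell. The count that fell with MCTP was 11 without MCTP replicate 2, 2 without control replicate 3 or MCTP replicate 3, and 1 without control replicate 1, control replicate 2 or MCTP replicate 1. The shares of all genes that fell in these fits were 30.6%, then 9.27% and 10.5%, then 8.76%, 7.75% and 7.56%. Chek1, a kinase of the replication checkpoint, had values of 9.14, 8.86 and 8.69 in control, 8.89, 8.79 and 9.01 in shNsd2 and 8.20, 8.60 and 8.05 in MCTP libraries. All MCTP libraries were below all controls, although replicate 2 was close to them, and the difference was -0.61 ± 0.16 (SE; adjusted p = 0.0222 from limma). It was -0.77 without MCTP replicate 2, and the call was lost without control replicate 1 (0.0705), control replicate 2 (0.0604), MCTP replicate 1 (0.0913) or MCTP replicate 3 (0.0588), in a range of 0.000265 to 0.0913. Apart from Nsd2, no regulator called with shNsd2 differed by 0.3 or more.

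Promoter sequences were searched for the p53 decamer consensus, the 10-base element that p53 binds in pairs and that reads alike on both strands. RefSeq windows (GRCm38.p6) from 250 bases before to 50 bases after a transcription start were matched by symbol for 27 of the 36 genes, with 35 windows. Perfect decamers were found in 12 of these windows (34.3%), which belong to 11 genes (Aen, Bax, Ccng1, Cdkn1a, Ei24, Gadd45a, Mdm2, Polk, Ppm1d, Sesn1 and Trp53), and in 8.36% of all 32817 windows. A pair of decamers 0 to 13 bases apart was found among these windows in that of Cdkn1a alone, and in 0.0731% of all windows. No window was matched by symbol for Ddb2, Perp, Pmaip1, Ptp4a3, Rrm2b, Tnfrsf10b, Trp53inp1, Xpc and Zmat3. A match describes letters only, and binding was not measured. The matches of 7 genes are shown, with 20 bases on each side, to give p53 itself, its feedback regulators Mdm2, Ccng1 and Ppm1d, the arrest genes Cdkn1a and Gadd45a and the death gene Bax; capitals mark each perfect decamer, and each stretch lies before the start and is written 5′ to 3′ on the strand of the gene.
Cdkn1a (chr17:29090886-29090957, + strand): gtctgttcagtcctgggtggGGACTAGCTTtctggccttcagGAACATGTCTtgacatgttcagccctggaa
Mdm2 (chr10:117710915-117710964, - strand): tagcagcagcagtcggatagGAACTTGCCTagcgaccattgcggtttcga
Ccng1 (chr11:40755442-40755491, - strand): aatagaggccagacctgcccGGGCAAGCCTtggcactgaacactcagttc
Bax (chr7:45467070-45467119, - strand): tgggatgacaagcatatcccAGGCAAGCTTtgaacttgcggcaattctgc
Trp53 (chr11:69580264-69580313, + strand): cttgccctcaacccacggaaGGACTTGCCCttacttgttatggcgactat
Ppm1d (chr11:85311102-85311151, + strand): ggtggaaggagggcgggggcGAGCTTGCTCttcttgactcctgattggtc
Gadd45a (chr6:67037418-67037467, - strand): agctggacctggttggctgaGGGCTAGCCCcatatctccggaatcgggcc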

How the data were processed

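The authors deposited a table of log2-scale values for 12842 genes, already scaled between libraries and with the spread of weakly expressed genes reduced. The submitters' processing notes name bcl2fastq 1.8.4, TopHat, Cufflinks, DESeq, DESeq2 and the build mm9, without their roles. The table does not name its transform, and the authors' methods, written for the RNA-seq of other samples, state normalization and variance stabilization with DESeq2. Of 12 value columns, 3 belong to none of the samples in the labels and were left aside. Genes were kept when at least 3 of the 6 libraries compared were above 3.78, the median of the lowest 10% of values. Groups were compared with limma 3.58.1 (eBayes with a mean-variance trend) in R 4.3.3, and p-values were adjusted by the Benjamini-Hochberg method over all genes tested, with a threshold of 0.05. Fits were tested on simulated data first.

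The members and lists were chosen with earlier results of these data known. Values in every library are given for Trp53, Mdm2, Mdm4, Cdkn1a and Ptp4a3, for members called with shNsd2 that differ by at least 0.3, and for members whose MCTP and control libraries do not overlap and differ by at least 0.3; genes of the further lists are named when called and differing by at least 0.3. Role groups were assigned after values were seen. Alternatives were no filter, all 9 libraries in 1 fit, a replicate block, quantile normalization, median centring, no variance trend, a GC correction (lowess, span 0.3) and each library left out. GC content came from GENCODE M21 transcripts, matched by Ensembl identifier for 12513 genes. Plots were made in Python 3.11.15 with matplotlib 3.10.9.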

Additional observations from a re-analysis of the deposited data

How the results depend on the processing

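With shNsd2, 14 of the 22 called p53 target genes were called in each of the 13 alternatives. The counts that moved by over 1.5 times did so as follows, and the cause was not tested. With all 9 libraries in 1 fit, 3 of the 35 genes fell with shNsd2, 8 further targets rose and 4 fell, and 2 regulators fell, where 16.5% of all genes rose and 18.9% fell. Under median centring 2 regulators fell with shNsd2 and 3 with MCTP, beside 21.2% and 12.7% of all genes. After GC correction 6 regulators rose with shNsd2 and 3 with MCTP, beside 27.6% and 23.3% of all genes. Leaving out 1 library in turn gave 3 to 5 of the 35 genes lower with shNsd2 and 1 to 4 with MCTP, 9 to 14 further targets higher with shNsd2 and 11 to 23 with MCTP, 3 to 6 regulators higher and 2 to 4 lower with shNsd2, and 1 to 11 regulators lower with MCTP. Of all genes, 16.7% to 24.5% rose and 18.8% to 24.8% fell with shNsd2 in these fits, and 9.19% to 29.8% rose and 7.56% to 30.6% fell with MCTP. All genes called ranged from 2046 to 7384 for MCTP against control and from 3391 to 7781 for MCTP against shNsd2.

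Differences close to 0 with shNsd2 changed sign in some alternatives. Bbc3 was at -0.062 after GC correction, and -0.0079 to 0.099 with each library left out in turn. Tnfrsf10b was at 0.011 under median centring and 0.0030 after GC correction, and -0.027 to 0.0077 with libraries left out. Xpc was at 0.0078 under quantile normalization and 0.013 under median centring, and -0.033 to 0.012 with libraries left out. Leaving out libraries gave -0.051 to 0.054 for Eda2r and -0.025 to 0.11 for Ddb2. The cause was not tested.

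The replicate numbers are shared by the groups. Deviations of libraries 1, 2 and 3 correlated with those of the same number at -0.49, 0.25 and -0.51 (control and shNsd2), -0.60, -0.57 and 0.61 (control and MCTP) and 0.35, -0.63 and -0.81 (shNsd2 and MCTP), with means of -0.25, -0.19 and -0.36, so on average same-numbered libraries were no closer than others. With the replicate block, 16 of the 35 genes rose and 5 fell with shNsd2, 22 were higher and 2 lower with MCTP, and 2 regulators fell with shNsd2. In the same fits 17.2% of all genes rose and 19.7% fell with shNsd2, and 13.9% rose and 14.0% fell with MCTP. The depth is unknown, and 3 libraries in a group limit the precision.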

Other observations

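With MCTP, markers of epithelial and mesenchymal state did not share a direction. With shNsd2, every tested gene of this paragraph had a negative difference, that of Krt18 being near 0. Among epithelial genes, Krt19 differed from control by -0.34 ± 0.065 (SE) with shNsd2 and 0.37 ± 0.11 (SE) with MCTP, and Krt8 by -0.21 ± 0.060 (SE) and 0.25 ± 0.10 (SE), the latter 0.17 to 0.35 over the libraries left out in turn and 0.15 after GC correction. Krt18 was near 0 in both (-0.0057 ± 0.065 and -0.0070 ± 0.10, SE), with ranges of -0.075 to 0.035 and -0.078 to 0.077 over the libraries left out, the last value without MCTP replicate 2, and it was -0.061 and -0.11 after GC correction. Cdh1, the gene of E-cadherin, differed by -0.20 ± 0.041 (SE) and -0.34 ± 0.053 (SE). Epcam, too low to be tested, was at 3.55, 3.54 and 3.55 in control, 3.71, 3.71 and 3.76 in shNsd2 and 3.58, 3.58 and 3.55 in MCTP libraries. Among mesenchymal genes, Vim was at 17.16, 17.26 and 17.23 in control, 17.08, 17.10 and 16.99 in shNsd2 and 17.55, 17.40 and 17.65 in MCTP libraries, lowest with shNsd2 and highest with MCTP without overlap. Zeb1, a repressor of Cdh1, was at 10.49, 10.48 and 10.43 in control, 10.16, 10.14 and 10.26 in shNsd2 and 10.19, 10.38 and 10.13 in MCTP libraries, lower in both treated groups. Cdh2 differed by -0.10 ± 0.033 (SE) with shNsd2 and -0.045 ± 0.049 (SE) with MCTP, the latter -0.060 to -0.018 over the libraries left out in turn.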
